A study of Mus musculus with 8 samples.

Results

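The guanylate-binding proteins (Gbp genes) were examined in mouse regulatory T cells (Tregs), which had been isolated from spleen by flow sorting. The members were the 10 genes Gbp2, Gbp2b, Gbp3, Gbp4, Gbp5, Gbp6, Gbp7, Gbp8, Gbp9 and Gbp10, chosen by symbol from the 21524 genes of the expression table. The table held 1 other symbol of the family, Gbp11, which was not among the members. The treatment labels put 4 libraries in the group IL-2 (libraries 41 to 44) and 4 in the control group (libraries 45 to 48). The series as a whole concerns a modified IL-2 given with the co-stimulation blocker CTLA-4 Ig to C57BL/6 mice that received a BALB/c heart or kidney, and the role of Tregs that carry ST2. The labels of these 8 libraries give the tissue and the treatment, and do not give strain, age, allele or graft, the form of IL-2, what the controls received, or whether CTLA-4 Ig was given. Nor do they say if separate animals gave the libraries, so p-values below measure the spread between libraries, which may be technical.

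Guanylate-binding proteins are large GTPases of the dynamin superfamily that cells make in response to interferon gamma. They assemble into oligomers as they bind and split GTP, and they coat the membranes of vacuoles that hold intracellular parasites and bacteria, where they work with the immunity-related GTPases and take part in inflammasome activation. In the mouse the genes lie in a cluster on chromosome 3 and a cluster on chromosome 5, and interferon regulatory factors such as IRF1 drive their transcription.

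The members of chromosome 5 are close copies of each other, which decides how well short reads can tell them apart. Coding sequences of the GENCODE vM21 annotation (GRCm38) shared 89.6 to 98.4% of aligned bases within the chromosome 5 cluster (median 90.6% over 10 pairs). Within the chromosome 3 cluster the range was 61.6 to 82.5%, and between the clusters it was 60.9 to 75.0%. The closest pair was Gbp6 and Gbp10 at 98.4%, and the closest pair of chromosome 3 was Gbp2 and Gbp2b at 82.5%. The stretch that encodes the GTP-binding P-loop, the loop that grips the phosphates of GTP, shows how alike the copies are. It is printed for the members whose transcripts changed and for the remaining chromosome 5 members, as 42 bases of coding sequence, 5′ to 3′, with a capital where the base differs from Gbp6. Gbp8 and Gbp9 match Gbp6 at every base, Gbp10 and Gbp4 differ at 3, Gbp3 at 7 and Gbp7 at 8.
Gbp6: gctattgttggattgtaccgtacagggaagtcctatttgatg
Gbp8: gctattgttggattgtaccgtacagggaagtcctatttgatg
Gbp9: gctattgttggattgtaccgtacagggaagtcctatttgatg
Gbp10: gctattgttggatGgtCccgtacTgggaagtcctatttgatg
Gbp4: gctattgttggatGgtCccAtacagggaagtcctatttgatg
Gbp3: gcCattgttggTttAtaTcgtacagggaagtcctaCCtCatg
Gbp7: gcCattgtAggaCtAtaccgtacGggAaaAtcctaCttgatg

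Over whole transcripts, 85.0% of the 31-base words of Gbp10 occur in another Gbp gene and 10.2% occur in no other gene of the annotation. For Gbp6 the shares were 57.6% and 25.8%. Fewer words were shared for Gbp8 (31.1%), Gbp9 (18.3%) and Gbp4 (13.5%), and at most 5.64% for any chromosome 3 member. An unnamed locus, Gm43302, holds 76.7% of the words of Gbp10 and was given 0 reads in 7 libraries and 4.54 in control library 45. Values of Gbp6 and Gbp10 taken singly are therefore uncertain, since the authors' quantifier had to divide reads that match both.

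**Figure D1:**
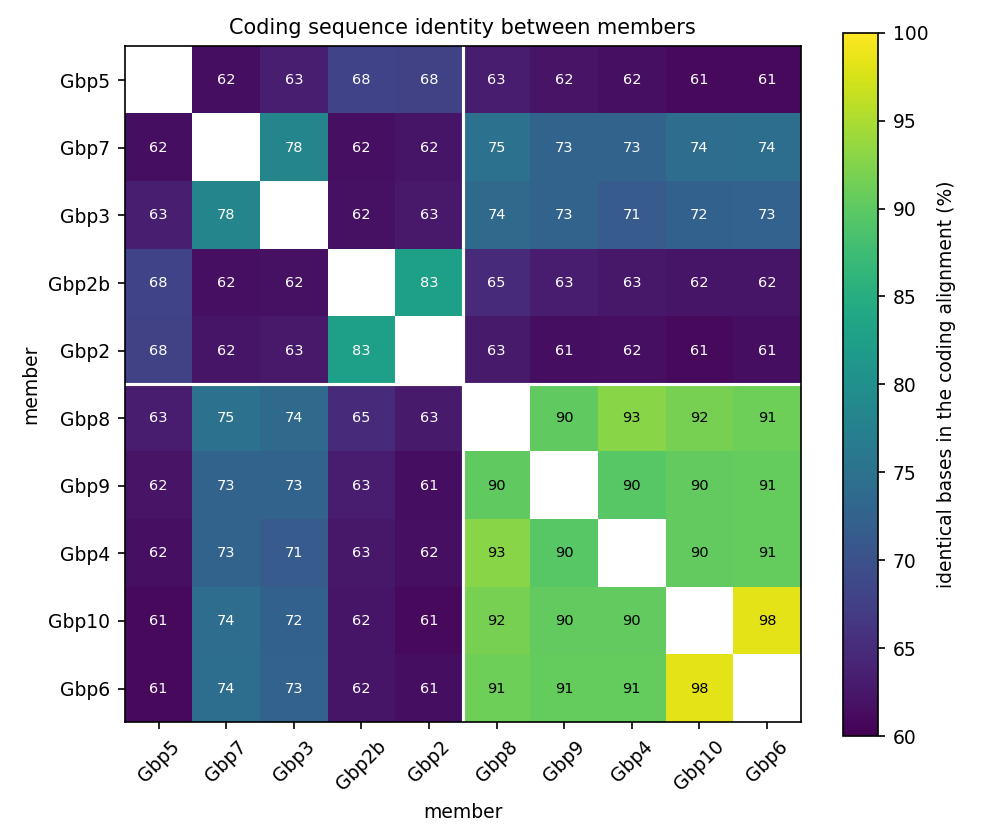
Identical bases (%) in the alignment of coding sequences for each pair of the 10 members, in chromosome order, with white lines between the clusters of chromosome 3 (Gbp5 to Gbp2) and chromosome 5 (Gbp8 to Gbp6). The chromosome 5 pairs form 1 block at 89.6 to 98.4%, while pairs between the clusters stay at 60.9 to 75.0%.

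The promoters of the chromosome 3 members carry letters of the interferon-stimulated response element, the site bound by interferon regulatory factors. RefSeq promoter windows (GRCm38.p6, 250 bases before to 50 after the start) were matched for 5 of the 10 members, all on chromosome 3, in 6 windows. They were searched on both strands for the core of that element (GAAA, any 2 bases, GAAA), and for TTCNNNGAA, the letters of a STAT site. The element core was found for 5 of the 5 members, against 3.99% of all 27025 genes with a window. Each match is shown with 25 bases on either side, on the plus strand, with the matching bases in capitals (they begin with TTTC and end with TTTC, since each match lies on the other strand). Gbp3, the member that rose most, has 2 overlapping matches, and its other annotated start has none.
Gbp5: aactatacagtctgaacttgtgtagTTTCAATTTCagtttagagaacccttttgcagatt
Gbp7: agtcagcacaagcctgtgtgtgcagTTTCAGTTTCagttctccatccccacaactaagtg
Gbp3: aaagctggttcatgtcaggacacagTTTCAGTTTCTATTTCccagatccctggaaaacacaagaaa
Gbp2b: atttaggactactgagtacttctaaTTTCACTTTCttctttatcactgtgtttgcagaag
Gbp2: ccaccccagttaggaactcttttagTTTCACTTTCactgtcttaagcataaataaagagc

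These stretches lie at chr3:142496744-142496803 (Gbp5), chr3:142530258-142530317 (Gbp7), chr3:142559974-142560039 (Gbp3), chr3:142594685-142594744 (Gbp2b) and chr3:142620579-142620638 (Gbp2). Counted from the start, the matches begin at base -53 in Gbp7, -59 in Gbp2, -45 in Gbp3, -137 in Gbp2b and -165 in Gbp5. TTCNNNGAA was found for 2 members, Gbp5 and Gbp7, with 2 matches each, against 9.55% of all genes. A match describes the letters of the window and not a bound site. The element core stood before 5 of 7 genes in a list of immunity-related and very large inducible GTPases, 7 of 16 type I interferon response genes and 3 of 11 interferon gamma pathway genes. None of the 8 autophagy, 7 inflammasome, 4 prenylation and 9 atlastin and dynamin genes with a window had it. On chromosome 3 the members that rose and those that did not pass, Gbp5 among them, thus all carry it. No window was matched for Gbp6, Gbp9 and Gbp10, which fell, so they cannot be compared.

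Expression is given below as normalised reads, recovered from the deposited variance-stabilised log2 values, with the mean ± SD over 4 libraries. Estimated depth was 4953546 to 6399417 reads per library and overlapped between the groups. Differences were tested with limma on log2(normalised reads + 5), IL-2 minus control, over 10777 genes with at least 10 reads in at least 4 libraries, with Benjamini-Hochberg adjustment and a threshold of 0.05. Of all these genes 19.9% passed, 10.9% higher and 9.07% lower in the IL-2 group, and in 23.9% the groups did not overlap (13.0% with IL-2 above and 10.9% with IL-2 below). All 10 members passed this filter. Foxp3, the factor that defines Tregs, was present in every library at 1123 to 2235 reads, and Il2ra, the high-affinity IL-2 receptor chain, was 2.61-fold higher in the IL-2 group (18107 ± 1601 against 6935 ± 781, adjusted p = 1.24e-06). Of the 7 Treg markers 1 other passed: Cd4 fell 1.64-fold (2523 ± 354 against 4136 ± 300, adjusted p = 0.000337).

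Of the 10 members, 2 rose in the IL-2 group (Gbp3 and Gbp7), 3 fell (Gbp6, Gbp9 and Gbp10) and 5 did not pass. Both that rose lie on chromosome 3 and all 3 that fell lie on chromosome 5. The median log2 difference was 0.26 over the chromosome 3 members and -1.03 over the chromosome 5 members, beside -0.01 over all genes tested. The groups did not overlap for 5 members: the IL-2 libraries lay above the controls for Gbp3 and below them for Gbp5, Gbp6, Gbp9 and Gbp10. A limma fit on the deposited scale, over 5261 genes of which 31.4% passed (16.8% higher and 14.6% lower), called the same 5 members in the same directions. On that scale the groups did not overlap for 31.5% of all genes, 16.7% with IL-2 above and 14.7% with IL-2 below. Gbp10 entered that fit through the control libraries only, so its call there adds nothing. In bulk RNA, fewer cells that transcribe a gene and less of its RNA per cell cannot be told apart.

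**Figure D2:**
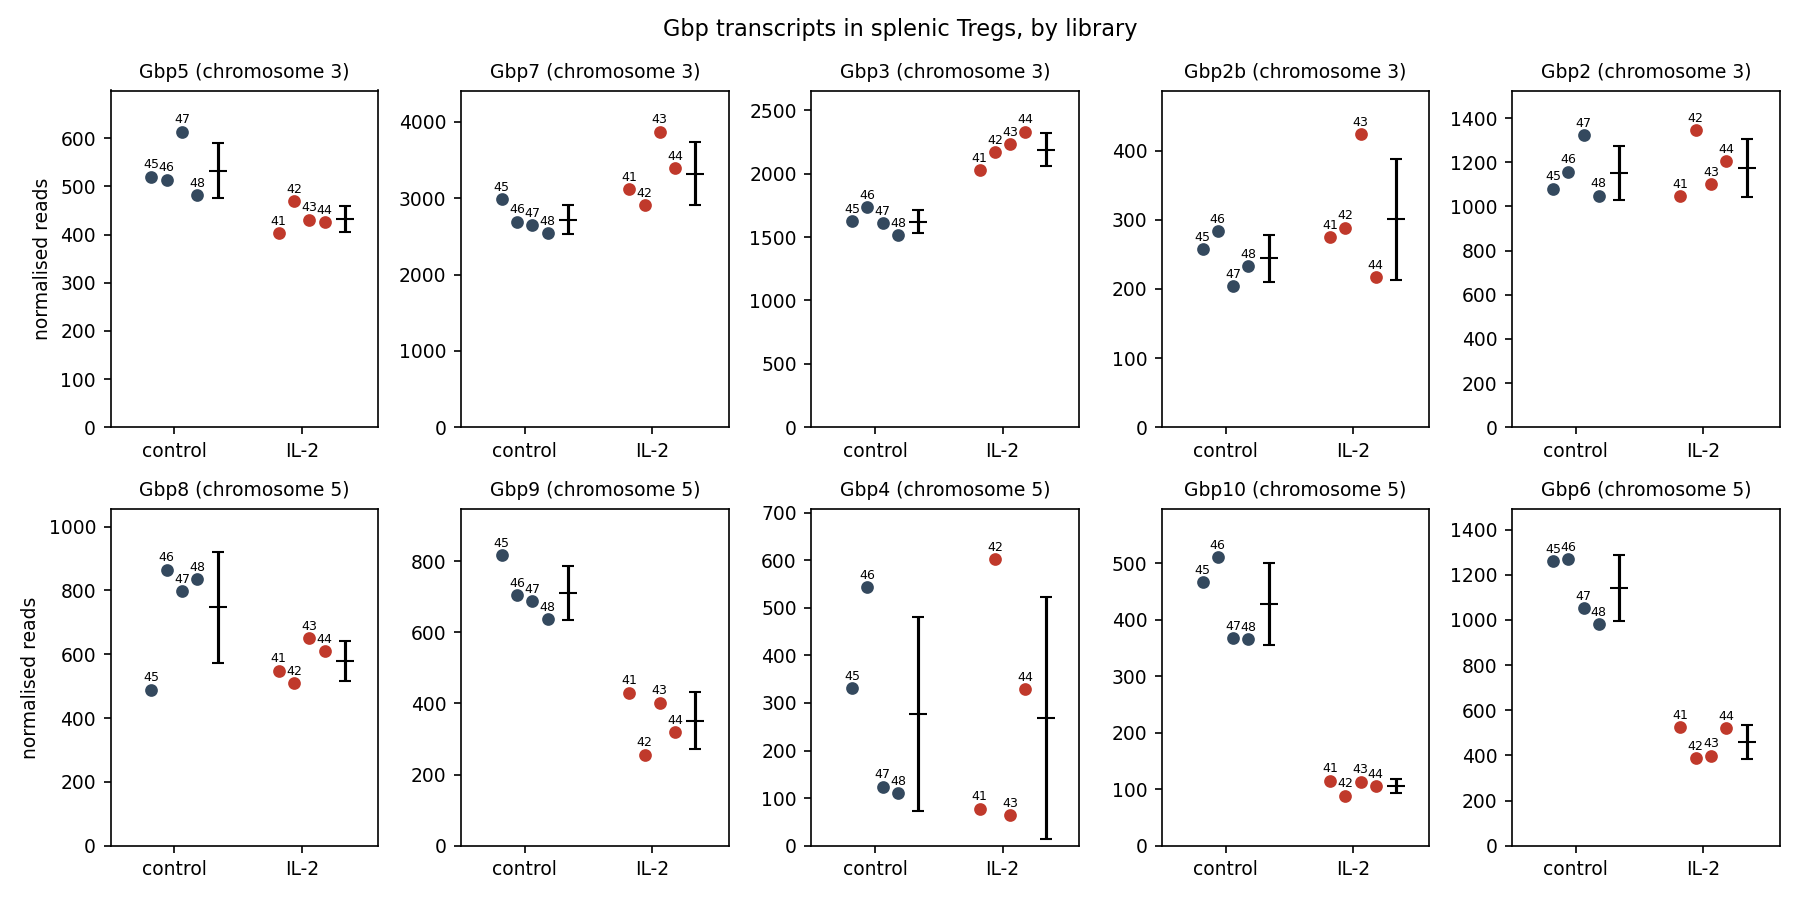
Normalised reads (linear axes from 0) of each member in each of the 8 libraries, numbered as in the labels, with bars for the mean and SD of each group of 4; chromosome 3 members are in the upper row and chromosome 5 members in the lower. Gbp3 lies above the controls in all IL-2 libraries, Gbp6, Gbp9 and Gbp10 lie below them, and Gbp4 spreads from 63.8 to 603 with no order by group.

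Gbp10, a member of the chromosome 5 cluster whose coding sequence nearly equals that of Gbp6, showed the largest fall among the members. It had 115, 88.2, 114 and 106 reads in IL-2 libraries 41 to 44 and 467, 511, 368 and 366 reads in control libraries 45 to 48. Every IL-2 library was far below the lowest control, and the IL-2 libraries were tightly grouped. The means were 106 ± 12.3 and 428 ± 72.7, 4.05-fold lower with IL-2 (log2 difference -1.96, SE 0.17, 95% interval -2.32 to -1.60, adjusted p = 9.17e-06).

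Gbp6, which is known to gather on the vacuole of the parasite Toxoplasma, fell in the same libraries. Its reads were 524, 389, 398 and 521 in the IL-2 libraries and 1260, 1269, 1052 and 982 in the controls, so the groups stood well apart. The means of 458 ± 74.5 and 1141 ± 146 differed 2.49-fold (log2 difference -1.31, SE 0.13, interval -1.60 to -1.03, adjusted p = 3.66e-05). Because reads are divided between these copies, their sum was also taken. Gbp6 and Gbp10 together had 564 ± 81.3 reads with IL-2 and 1568 ± 216 in the controls, 2.78-fold lower, with a highest IL-2 library of 639 and a lowest control of 1348. The sum does not depend on how reads are divided within the pair. The share of the pair's reads given to Gbp10 was 18.9% ± 2.30 with IL-2 and 27.2% ± 1.15 in the controls, a quantity that rests on the division itself.

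Gbp9, another member seen on Toxoplasma vacuoles, had 430, 256, 402 and 320 reads in the IL-2 libraries and 818, 705, 688 and 636 in the controls. The highest IL-2 library stayed under the lowest control. The means of 352 ± 79.3 and 712 ± 76.3 differed 2.02-fold (log2 difference -1.03, SE 0.16, interval -1.37 to -0.69, adjusted p = 0.000729).

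Gbp8 had 548, 508, 650 and 610 reads with IL-2 and 489, 865, 797 and 835 in the controls. Control library 45 lay below every IL-2 library, and the other 3 controls lay above them all. The difference did not pass the test (579 ± 63.2 against 747 ± 174, log2 difference -0.34, interval -0.70 to 0.03, adjusted p = 0.190). Without control library 45 it did, with a log2 difference of -0.53 and an adjusted p of 0.00835. Library 45 is also the only control library with Ddx3y at 0, and IL-2 libraries 41 and 42 have it at 0 too. In each group these were the libraries with the fewest Gbp8 reads (489 in 45, 548 in 41 and 508 in 42). The fit without library 45 therefore had Ddx3y at 0 in IL-2 libraries only. With the presence of Ddx3y as a covariate, the log2 difference of Gbp8 was -0.22 (SE 0.12, adjusted p = 0.239).

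Gbp4 differed from its cluster neighbours in its spread. Its reads were 77.9, 603, 63.8 and 329 with IL-2 and 331, 544, 124 and 111 in the controls, so high and low libraries occurred in both groups. The coefficient of variation was 94.7% with IL-2 and 73.6% in the controls, against 10.9 to 22.5% and 10.7 to 23.3% for the other chromosome 5 members. Its difference did not pass the test and its interval was wide (log2 difference -0.31, interval -1.78 to 1.16, adjusted p = 0.798). Gbp11 lies in the same cluster and has an annotated coding sequence of 1326 bases, shorter than that of any member. It had 4.60 to 28.5 reads with IL-2 and 4.18 to 11.1 in the controls and did not pass either (adjusted p = 0.267).

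Gbp3, a chromosome 3 member that also reaches parasite vacuoles, rose. It had 2027, 2170, 2234 and 2331 reads in the IL-2 libraries and 1626, 1734, 1610 and 1516 in the controls. All IL-2 libraries exceeded all controls, and each group was narrow. The means of 2191 ± 127 and 1621 ± 89.4 differed 1.35-fold (log2 difference 0.43, SE 0.07, interval 0.27 to 0.59, adjusted p = 0.00144). The rise of Gbp3 was smaller than any of the 3 falls.

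Gbp7, a member tied to assembly of the oxidase that makes reactive oxygen in phagocytes, had 3122, 2907, 3872 and 3395 reads with IL-2 and 2986, 2691, 2647 and 2545 in the controls. The groups overlapped, since IL-2 library 42 was below control library 45. The means of 3324 ± 416 and 2717 ± 189 differed 1.22-fold, just past the threshold (log2 difference 0.28, SE 0.09, interval 0.09 to 0.48, adjusted p = 0.0435). The call was lost without library 41, 43, 44, 46, 47 or 48, with adjusted p-values of 0.0554 to 0.121, and under quantile normalization (0.107), median centring (0.0585) or no filter on low values (0.0726).

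Gbp5, which promotes the NLRP3 inflammasome in macrophages, went the other way from its neighbours on chromosome 3 without passing the test. It had 402, 470, 431 and 426 reads with IL-2 and 520, 514, 614 and 482 in the controls, so every IL-2 library lay just below every control. The means were 432 ± 28.0 and 532 ± 56.8 (log2 difference -0.29, SE 0.11, interval -0.53 to -0.06, adjusted p = 0.0817). On the deposited scale its adjusted p was 0.0607, and it passed there after quantile normalization (0.0476) or median centring (0.0413).

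Gbp2 and Gbp2b, the pair of chromosome 3 with the most similar coding sequences, did not pass the test. Gbp2, one of the members known to restrict Toxoplasma, had 1046 to 1345 reads with IL-2 and 1049 to 1323 in the controls (1174 ± 132 and 1152 ± 122), nearly the same span. Its log2 difference of 0.03 had an interval of -0.20 to 0.25 (adjusted p = 0.900), which leaves room for a small change in either direction. Gbp2b, the mouse gene whose protein is also called GBP1, had 275, 289, 424 and 217 reads with IL-2 and 258, 284, 204 and 233 in the controls. Library 43 stood above the rest and the other libraries mixed (301 ± 87.7 and 245 ± 34.2, log2 difference 0.26, interval -0.16 to 0.69, adjusted p = 0.394).

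**Figure D3:**
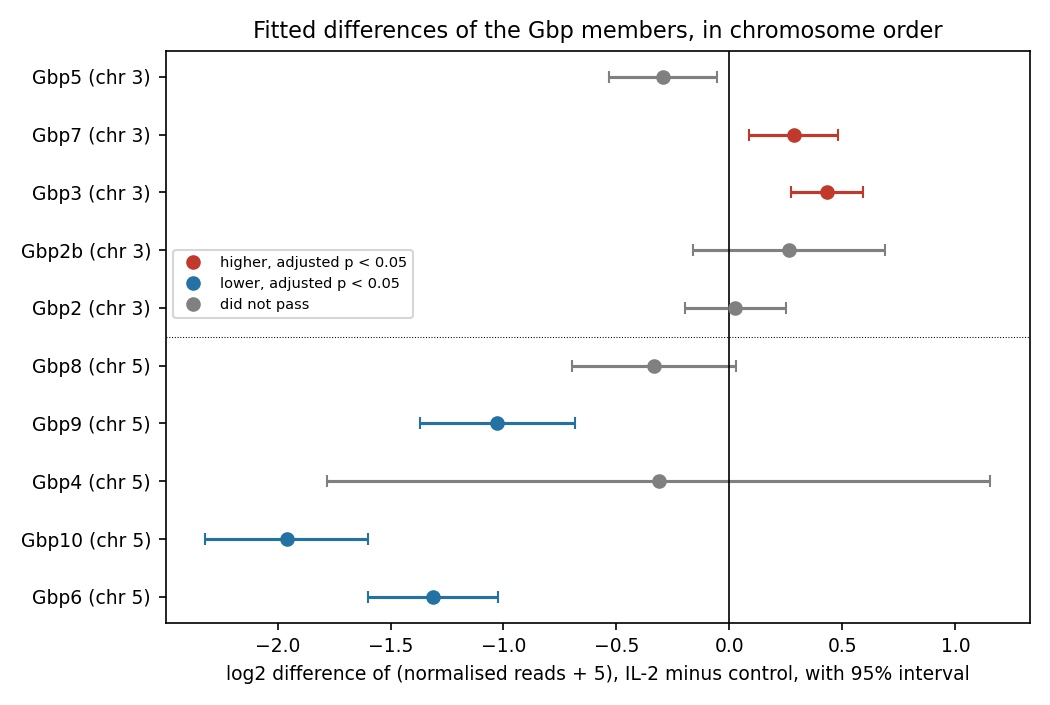
Fitted log2 difference (IL-2 minus control) of normalised reads plus 5 for each member, in chromosome order, with its 95% interval; red marks members that passed the test higher, blue lower, and grey those that did not pass. On chromosome 3 the points run from -0.29 (Gbp5) to 0.43 (Gbp3), and on chromosome 5 all 5 lie below 0, down to -1.96 (Gbp10).

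Summed over the cluster, the chromosome 5 members had 1695, 1844, 1628 and 1885 reads in the IL-2 libraries and 3364, 3893, 3030 and 2930 in the controls. The IL-2 libraries lay below all controls, and the means of 1763 ± 121 and 3304 ± 434 differed 1.87-fold. The chromosome 3 members summed to 6872, 7182, 8060 and 7573 reads with IL-2 and 6471, 6380, 6397 and 5824 in the controls, with every IL-2 library above every control (7422 ± 513 and 6268 ± 299, 1.18-fold higher). The higher chromosome 3 sum lay in Gbp3 and Gbp7 (5515 ± 489 against 4339 ± 236). Gbp2 and Gbp2b together overlapped between the groups (1475 ± 135 against 1397 ± 109), and Gbp5 was lower with IL-2. The family total was 9185 ± 495 reads with IL-2 and 9572 ± 646 in the controls and overlapped between the groups. The chromosome 5 share of all member reads was 19.2% ± 1.65 with IL-2 and 34.4% ± 2.46 in the controls. No test was made of these sums, since the members were chosen with results in view.

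**Figure D4:**
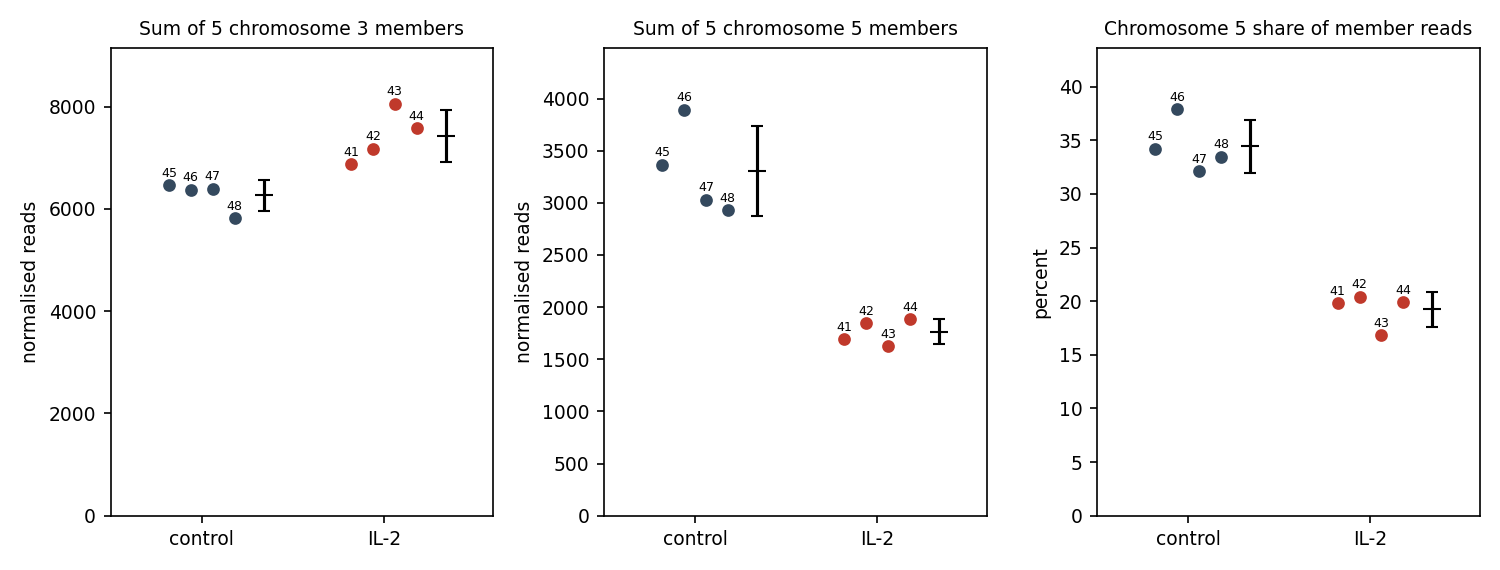
Summed normalised reads of the 5 chromosome 3 members (left) and of the 5 chromosome 5 members (middle), and the chromosome 5 share of member reads in percent (right), for each library with the mean and SD of 4; axes start at 0. The chromosome 3 sums were 6872 to 8060 with IL-2 against 5824 to 6471 in the controls, and the chromosome 5 sums 1628 to 1885 against 2930 to 3893.

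Levels of single members were compared with each other as normalised reads per kilobase of the annotated transcript with the longest coding sequence. The sums and the chromosome 5 share above have no such correction, so longer transcripts weigh more in them. In the controls Gbp3 led with 605 ± 33.3 per kilobase, followed by Gbp7 (484 ± 33.8), Gbp2 (458 ± 48.7), Gbp6 (438 ± 55.9), Gbp8 (304 ± 70.7), Gbp5 (174 ± 18.6), Gbp9 (162 ± 17.4), Gbp10 (121 ± 20.6), Gbp2b (86.6 ± 12.1) and Gbp4 (61.1 ± 45.0). The ranges of mean ± SD overlapped between Gbp7 and Gbp2, Gbp2 and Gbp6, Gbp5 and Gbp9, and Gbp2b and Gbp4, so those neighbours in the order do not differ beyond their spread. With IL-2 the first 3 places stayed with Gbp3 (817 ± 47.5), Gbp7 (592 ± 74.1) and Gbp2 (467 ± 52.5). Gbp6 moved below Gbp8 (176 ± 28.6 against 236 ± 25.7), and Gbp10 came last at 29.9 ± 3.49. In the IL-2 group Gbp7 and Gbp2 overlapped, as did each neighbour with the next from Gbp6 down. Per kilobase of coding sequence Gbp7 came first in both groups (1420 ± 99.0 in the controls, 1737 ± 217 with IL-2) and Gbp3 followed (872 ± 48.0 and 1178 ± 68.5), so the order of these genes depends on the length used.

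The interferon gamma pathway, which drives transcription of the family, moved in both directions. Of 13 tested genes 3 rose (Socs1, Ifngr1 and Ptpn2), 5 fell (Stat2, Jak2, Irf1, Irf8 and Irf9) and 5 did not pass. Over all genes tested 10.9% rose and 9.07% fell. The median log2 difference was -0.13 beside -0.01 over all genes. Irf1, an interferon-induced factor that acts on Gbp promoters, had 495 to 691 reads with IL-2 and 932 to 1171 in the controls. It fell 1.76-fold (591 ± 87.7 against 1037 ± 98.8, log2 difference -0.81, SE 0.12, adjusted p = 0.000482). Jak2, a kinase of the receptor, fell 1.51-fold (1201 ± 103 against 1819 ± 69.4, adjusted p = 0.000275). In both genes the IL-2 libraries lay below all controls.

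Socs1, an inhibitor of JAK kinases that curbs interferon gamma and IL-2 signals, rose 2.89-fold, from 210 ± 44.1 reads in the controls to 608 ± 153 with IL-2 (adjusted p = 0.000225). Ifngr1, the ligand-binding chain of the receptor, rose 1.49-fold (3128 ± 359 against 2095 ± 222, adjusted p = 0.00152). Its partner Ifngr2 had 262 ± 14.8 against 201 ± 29.4 reads and did not pass (adjusted p = 0.0968). Ifng itself, the ligand, had 17.2 to 40.6 reads with IL-2 and 2.72 to 23.2 in the controls and did not pass (adjusted p = 0.104).

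Of 9 immunity-related and very large inducible GTPases, which act with the guanylate-binding proteins on vacuoles, 7 fell and 2 did not pass. Their median log2 difference was -0.61, and over all genes tested 9.07% fell. The count of rises in limma was 0, and it was also 0 at an unadjusted p under 0.05 and on the deposited scale. Iigp1, a GTPase that breaks parasite vacuoles, fell 2.52-fold (470 ± 85.4 against 1185 ± 195, adjusted p = 7.82e-05). Irgm1 and Irgm2, regulators that hold such GTPases off host membranes, fell 2.14-fold (330 ± 57.3 against 708 ± 116, adjusted p = 0.000396) and 1.71-fold (511 ± 61.1 against 873 ± 116, adjusted p = 0.00101). Tgtp2, an effector of the same family, fell 1.88-fold (482 ± 51.4 against 906 ± 183, adjusted p = 0.000832), but it has near-identical copies and its value is uncertain for the same reason as that of Gbp10. None of these 4 genes had an IL-2 library that reached the lowest control.

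Of 22 tested type I interferon response genes, 5 fell and 17 did not pass, beside 9.07% lower over all genes. Their median log2 difference was -0.46. The count of rises in limma was 0, while 3 genes were higher at an unadjusted p under 0.05 and 1, Ifnar2, passed on the deposited scale. Ifit2, a binder of foreign RNA, had 375 ± 32.7 against 645 ± 94.1 reads (1.72-fold lower, adjusted p = 0.00113). Parp14, an ADP-ribosyltransferase, fell 1.35-fold (2277 ± 141 against 3071 ± 309, adjusted p = 0.00342) and Rtp4 1.89-fold (85.9 ± 19.5 against 162 ± 28.9, adjusted p = 0.0131). Zbp1, a nucleic acid sensor, fell 1.42-fold with overlapping groups (599 ± 100 against 847 ± 125, adjusted p = 0.0208).

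Genes that load, modify or work with these GTPases were read in the same fit. In the autophagy conjugation system, which places them on vacuoles, 1 of 10 genes rose (Atg3, 462 ± 53.1 against 308 ± 51.0, adjusted p = 0.0110) and 1 fell (Atg16l1, 206 ± 14.5 against 283 ± 33.0, adjusted p = 0.0444). Of 6 inflammasome genes 1 fell, Casp4, the sensor of bacterial lipopolysaccharide that these proteins help to activate (92.1 ± 19.4 against 154 ± 23.5, adjusted p = 0.0316). None of 6 genes of prenylation, the lipid tag that anchors Gbp2, Gbp2b and Gbp5, and none of 7 atlastins and dynamins passed in limma on either scale; at an unadjusted p under 0.05, 0 and 2 genes differed, both of the latter higher. Over all lists 4 of 73 tested genes rose, 19 fell and 50 did not pass, beside 10.9% and 9.07% of all genes.

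**Figure D5:**
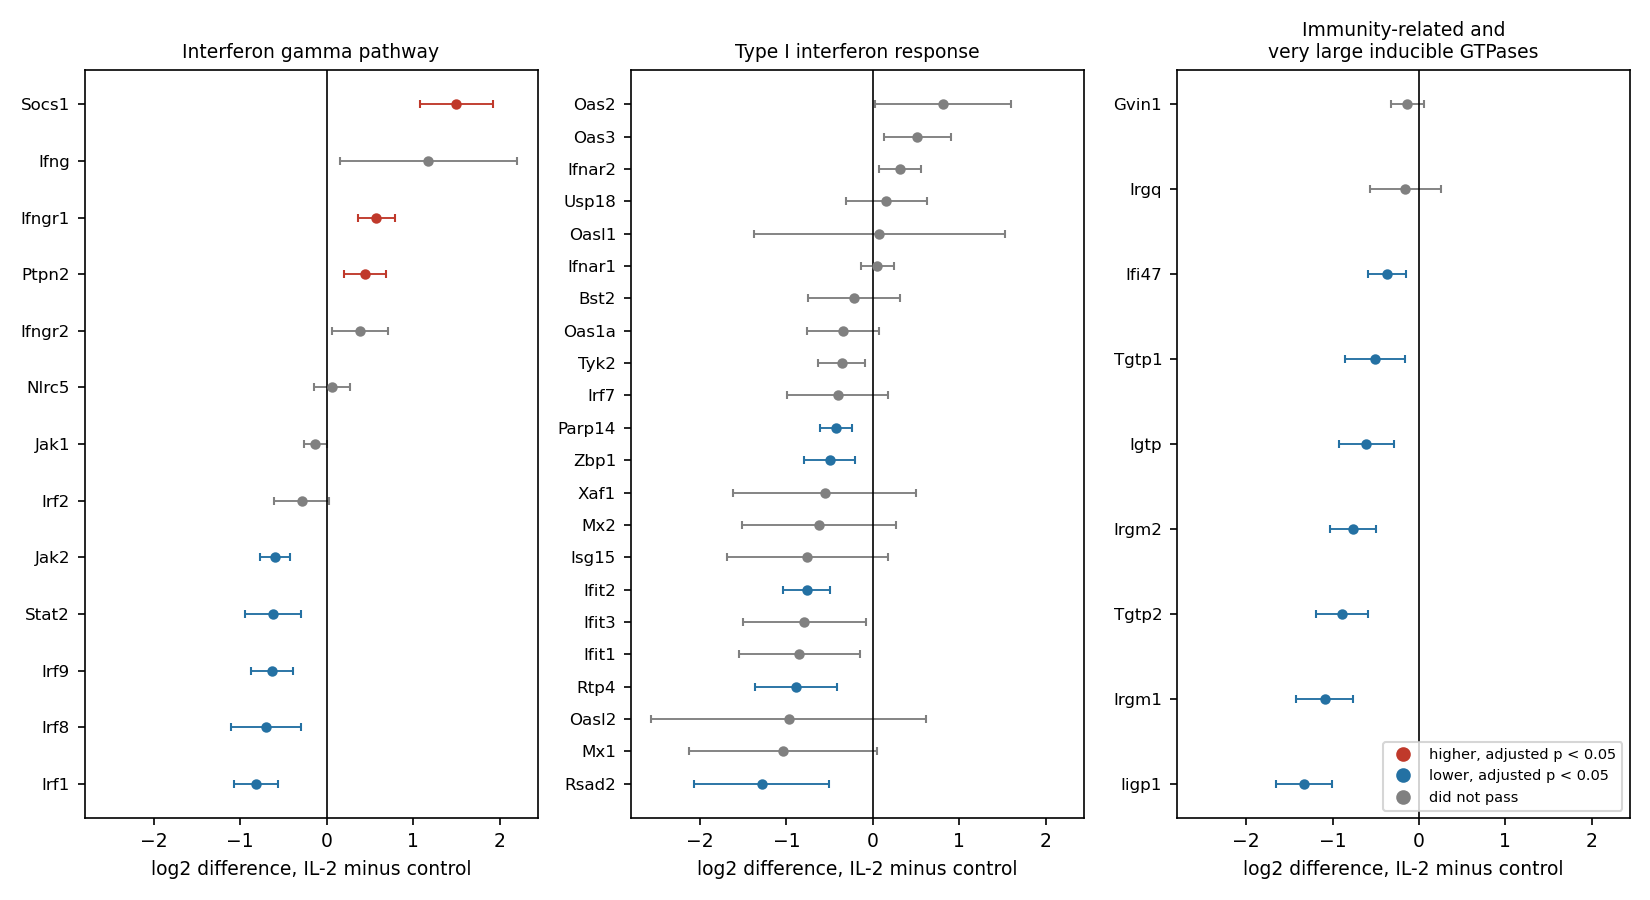
Fitted log2 difference (IL-2 minus control) of normalised reads plus 5 with its 95% interval for each tested gene of the interferon gamma pathway (left, 13 genes), the type I interferon response (middle, 22) and the immunity-related and very large inducible GTPases (right, 9); red marks genes that passed higher, blue lower, grey did not pass. Socs1 and Ifngr1 lie at the upper right and Irf1 at -0.81, while in the right panel 7 of 9 genes passed on the lower side.

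Some markers of other cells differed between the groups, and markers within a list did not all go the same way. The summed reads of 6 B cell markers were 121 to 241 with IL-2 and 487 to 606 in the controls, mostly from Cd74, the chaperone of MHC class II (88.5 ± 40.1 against 396 ± 35.4). Cd22, a receptor of B cells, fell as well (24.1 ± 5.53 against 114 ± 20.1, 4.73-fold, adjusted p = 0.000257), while 3 of the 6 (Ms4a1, Cd79a and Pax5) were at no more than 10 reads in every library. Cd79b had a higher mean with IL-2 and did not pass (60.1 ± 31.1 against 42.0 ± 14.1, adjusted p = 0.636). Of 10 markers of monocytes, macrophages and dendritic cells, summed reads were 722 to 998 with IL-2 and 1566 to 1864 in the controls, mostly from the protease gene Ctss (847 ± 121 against 1663 ± 140). Of these, 5 stayed at or under 10 reads throughout, Cd14 was at 0 in all libraries, and Lyz2 was at 0 in all IL-2 libraries. Cd68 had a higher mean with IL-2 and did not pass (17.2 ± 7.98 against 13.4 ± 7.15, adjusted p = 0.711). Of 5 endothelial and stromal markers the sums were 991 to 1180 against 1262 to 1537, mostly Pecam1 (1058 ± 90.4 against 1363 ± 121), with Cdh5 and Pdgfrb at 0. Of 4 plasma cell markers the sums were 495 to 597 against 272 to 372, nearly all Xbp1 (542 ± 42.4 against 320 ± 47.9). Sums for CD8 T, erythroid and neutrophil markers overlapped between the groups. The sums of 5 NK cell markers also overlapped, but their members went opposite ways. Nkg7 rose (143 ± 7.17 against 39.2 ± 19.0, adjusted p = 0.00105). Klrb1c (2.90 ± 3.53 against 36.4 ± 29.5) and Eomes (7.28 ± 13.1 against 58.8 ± 14.8) had lower means with IL-2. Klrb1c was under 10 reads in every IL-2 library, and Eomes in all but library 43 (26.9). Both met the filter through the controls, so their calls add nothing. The part of such cells in the falls of Gbp6, Gbp9 and Gbp10 was not tested. The Y-linked transcript Ddx3y was at 0 in libraries 41, 42 and 45, and with its presence as a covariate the same 5 members passed (Gbp10 at a log2 difference of -1.96, Gbp3 at 0.45).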

How the data were processed

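Total RNA of sorted splenic Tregs was made into stranded, dual-indexed low-input libraries, per the labels' protocols. The authors deposited log2 values with variance stabilised by DESeq2, per the file's name. The submitters' processing notes list Salmon, DESeq2 and GRCm39. Of the annotation, settings and filters, the sources used here give nothing. Salmon shares out by estimation any read that fits more than 1 transcript. Columns were matched to samples by library number.

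The lowest value, 8.69, stands for 0 reads and was held by 6620 genes in all libraries. Inverting the parametric transformation gave normalised reads. Of 40 common low values checked, 34 were whole multiples of 1 read within 0.001. A value 1 above the lowest corresponds to 206 reads, so the deposited scale is compressed below that. Most values were not whole reads, so no count test was run.

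limma (lmFit, eBayes with trend) was fitted to all genes at once, on the deposited log2 values (at least 1 above the lowest in at least 4 of 8 libraries, 5261 genes) and on log2(normalised reads + 5) (at least 10 reads in at least 4 libraries, 10777 genes), without covariates. It was also tested on simulated data. Folds are ratios of mean normalised reads.

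The members and the gene lists were chosen with earlier results of these data known. Named were all Gbp genes, up to 4 genes with the smallest adjusted p of each list, Ifng, Ifngr1, Ifngr2 and Irf1, neighbours of the clusters past the threshold, and the most abundant gene of marker lists whose sums did not overlap. Other genes of the interferon gamma list that passed were named after their values were seen. So were Ddx3y, Foxp3, Cd4, Cd22, Cd79b, Cd68, the NK cell markers and the markers at or near 0. Some genes of the lists are not reported here and were left out of the lists' counts. Sums over copies by coding identity were added after seeing the data, in place of a planned sum by protein identity that was not run. Sequences were from RefSeq promoters (GRCm38.p6) and GENCODE vM21 transcripts. Alternatives changed the filter, pseudocount, scaling, variance model, library weights and the Ddx3y covariate, and left out each library. Software was Python 3.11.15 with Biopython 1.88, matplotlib 3.10.9, pandas 2.3.3 and numpy 2.4.6, and limma 3.58.1 under R 4.3.3.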

Additional observations from a re-analysis of the deposited data

Results flagged for a closer look

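In 3 of 68 groups of 4 libraries checked (34 genes, each in both groups) 1 library lay far from the other 3, with a gap to its nearest neighbour that took up most of the group's range. The criterion is Dixon's critical value at the 95% level, which is set to pass about 5% of groups by chance. Gaps and ranges were taken on the deposited log2 values, so they do not follow from the reads printed below. Gbp8 in control library 45 had 489 reads against 797 to 865 in the other controls, a gap of 0.845 of the range on the deposited scale. Jak2 in control library 46 had 1716 reads against 1842 to 1861, a gap of 0.875 of the range on the deposited scale. Atg16l1 in control library 45 had 234 reads against 294 to 305, a gap of 0.856 of the range on the deposited scale.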

How the results depend on the processing

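Gbp3, Gbp6, Gbp9 and Gbp10 passed in the same direction in all 16 settings on normalised reads. On the deposited scale they also passed wherever tested, but Gbp10 entered that fit through the controls only, as did Gbp6 with the filter at 2 above the lowest value, so those calls add nothing. No called value changed sign. On normalised reads Gbp3 ranged from 0.40 to 0.47, Gbp6 from -1.38 to -1.24, Gbp9 from -1.13 to -0.89 and Gbp10 from -2.03 to -1.82. The number of members called higher was 2, and it was 1 (Gbp3) on normalised reads with no filter, median centring or quantile normalization, and 1 on the deposited scale with no filter or quantile normalization. Leaving out each library gave 1 to 2 on either scale; the member lost was Gbp7, which passed in 7 of 16 settings on normalised reads and 10 of 17 on the deposited scale. The number called lower was 3 on the deposited scale, and it was 1 with a filter at 2 above the lowest value, where only 4 members were tested. It was 4 there with quantile normalization, with median centring and without control library 45, and 4 on normalised reads without control library 45. Gbp8 passed in 1 of 16 settings on normalised reads, the one without control library 45. Of the pathway genes, 14 to 19 were lower and 4 to 5 higher when each library was left out. Summed with Gbp6, the log2 ratio of group means of Gbp10 moved from -2.02 to -1.48, and the sum over the chromosome 5 members was at -0.91. No paired analysis was possible because the groups share no replicate numbers. Depth limits what can be said of Gbp11 and Ifng, which had few reads in every library. With 4 libraries a group, a small change of Gbp2 or Gbp2b could be missed.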

Other observations

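The genes next to the Gbp clusters were read in the same fit, taking the 5 tested genes on each side in RefSeq order. Of the 10 neighbours on chromosome 5, 3 rose and 1 fell, where the Gbp members of that cluster that passed all fell. The 3 that rose were Lrrc8b, Lrrc8c and Lrrc8d, subunits of the volume-regulated anion channel, which lie side by side just after the cluster. Lrrc8c had 1944 to 2277 reads with IL-2 and 1173 to 1261 in the controls, a 1.72-fold rise (2076 ± 148 against 1204 ± 40.2, adjusted p = 2.41e-05). Lrrc8d rose 1.69-fold (669 ± 106 against 396 ± 20.5, adjusted p = 0.00152) and Lrrc8b 1.44-fold (278 ± 16.5 against 192 ± 21.6, adjusted p = 0.0194). Zfp644, a zinc finger gene further on, fell 1.27-fold (823 ± 59.2 against 1049 ± 106, adjusted p = 0.0232).

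Of the 10 neighbours on chromosome 3, where Gbp3 and Gbp7 rose, 2 fell and 0 rose in limma, also 0 at an unadjusted p under 0.05. These were Tspan5, a tetraspanin (26.2 ± 10.1 against 96.5 ± 37.4 reads, adjusted p = 0.00564), and Lmo4, a LIM-domain cofactor (14.9 ± 8.89 against 43.7 ± 19.7 reads, adjusted p = 0.0448), both at few reads. Over both clusters 3 of 20 neighbours rose and 3 fell, beside 10.9% and 9.07% of all genes.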
